A study of Saccharomyces cerevisiae with 56 samples.

Results

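The Ty1 element at YPL257W-B is a retrotransposon on the left arm of yeast chromosome XVI, and copies of pieces of it were found inserted at a DNA double-strand break (DSB) elsewhere in the genome. Every insertion with a single donor whose donor lies on the element was taken, that is within 400 bp of the YPL257W-B reading frame. These were 111 of the 1436 single-donor insertions in the lists, or 7.73%. YPL257W-B, the gag-pol frame, runs from 56748 to 62016 on chromosome XVI of the R64 genome (5269 bp). YPL257W-A, the gag frame, starts at the same base and ends at 58070 (1323 bp). Both are on the plus strand.

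*Break-Ins* sequences the repaired *MAT***a** locus of pooled survivors after the HO endonuclease has cut it, so that inserted DNA can be traced to its donor. All strains were haploid derivatives of JKM139 with DELho, hml::ADE1 and hmr::ADE1, a *MAT***a** cut site and the galactose-induced nuclease at ade3::GAL10::HO, on an ade1, ura3-52, trp1::hisG, lys5 background with the leu2-3 and leu2-112 mutations. Each genotype came from 1 strain. Insertion lists were used for 16 genotypes. The 8 with a segment of the element were *rtt105*Δ (rtt105::hphMX, 8 libraries), *sgs1*Δ (sgs1::KanMX, 2), *exo1*Δ (exo1::TRP1, 2), *sgs1*Δ *exo1*Δ (sgs1::KanMX exo1::TRP1, 4), *rad27*Δ (rad27::klTRP1, 14), *rtt105*Δ *rad27*Δ (rtt105::hphMX rad27::klTRP1, 3), *rtt105*Δ *tel1*Δ (rtt105::hphMX tel1::TRP1, 2) and *rfa1*-t33 (titled RFA1-t33, 3). The other 8, with 2 libraries each, were *lig4*Δ (lig4::klTRP1), *mre11*Δ (mre11::hphMX), *mre11*-H125N (mre11-H125N::URA3), *pol32*Δ (pol32::natMX), *rad30*Δ (rad30::kanMX), *rev3*Δ (rev3::klTRP1), *rtt105*Δ *rad1*Δ (rtt105::hphMX rad1::klTRP1) and *rfa1*-t33 *rad27*Δ. Cells were kept at 30°C, except 3 *rad27*Δ libraries labelled 23C and 3 labelled 37C. The labels give 672 to 140000 colonies per library. Read depth is unknown, since a list gives 1 line per donor and pools the libraries of its genotype. Insertions were therefore the units, no spread between libraries could be given, and every test compares lists of insertions.

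Ty1 is copied from its RNA into cDNA by the reverse transcriptase that *pol* encodes, inside particles built from the Gag protein. A long terminal repeat (LTR) flanks each side of the element, and the first codons of *gag* lie within the upstream LTR. Copying of the first cDNA strand starts from a tRNA annealed just downstream of that LTR, and the second strand starts at a purine-rich tract just upstream of the other LTR. Ty1 cDNA is normally joined to chromosomes by its integrase, and broken ends can also capture it. Rtt105 was named as a regulator of Ty1 transposition and carries the ssDNA-binding protein RPA into the nucleus, and the helicase Sgs1 is also known to restrain Ty1.

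A piece was assigned to the LTR side when at least 1 bp of it lay outside the gag-pol frame. This stands in for the LTRs, whose coordinates were not in the annotation used here. Of the other pieces, those with a midpoint in YPL257W-A were called gag and the rest pol. The orientation is called sense when the listed strand is that of the element. Amplicons of the repaired locus are double-stranded, so this label does not tell which strand of a cDNA was captured. Strains are not of the reference background, and the reference holds many near-identical Ty1 copies. A segment is thus listed at its best-matching copy, and its true source cannot be told apart from other copies by position alone.

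The number of segments per genotype is what chose the element, so it is given as a description without a test. In *rtt105*Δ, 82 segments were listed among 374304 colonies, which is 2.19 per 10000 colonies (exact 95% Poisson interval 1.74 to 2.72). Intervals cover counting error only, since without molecular identifiers amplified reads do not count molecules. They were 15.1% of the 543 single-donor insertions of that list (exact 95% interval 12.2 to 18.4).

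Sgs1 and the exonuclease Exo1 act in parallel in long-range resection of broken ends. In *sgs1*Δ *exo1*Δ, 6 segments among 55000 colonies gave 1.09 per 10000 (0.400 to 2.37). In *sgs1*Δ, 6 among 106080 colonies gave 0.566 (0.208 to 1.23). In *exo1*Δ, 3 among 54240 gave 0.553 (0.114 to 1.62). As a share of all single-donor insertions, the segments were 8.11% of 74 in *sgs1*Δ *exo1*Δ (3.03 to 16.8). They were 13.95% of 43 in *sgs1*Δ (5.30 to 27.9) and 23.1% of 13 in *exo1*Δ (5.04 to 53.8). These intervals include the 15.1% of *rtt105*Δ.

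Genotypes that lack Rad27, the nuclease that trims 5′ flaps of the lagging strand, had few segments for their many insertions. In *rad27*Δ, 6 segments among 820032 colonies gave 0.0732 per 10000 (0.0269 to 0.159). Whether the pooled list holds the insertions of the 3 libraries labelled 37C is not known, and without their colonies the value is 0.0999. These segments made up 1.90% of its 315 insertions. In *rtt105*Δ *rad27*Δ, 5 segments among 111840 colonies gave 0.447 (0.145 to 1.04), or 1.69% of its 295 insertions.

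The remaining genotypes with a segment were at or near a single one. In *rtt105*Δ *tel1*Δ, which also lacks the checkpoint kinase Tel1, there were 2 segments among 46080 colonies of the library to which the list is attached, or 0.434 per 10000 (0.0526 to 1.57). Over the colonies of both libraries it is 0.252. These 2 were 10.5% of the 19 insertions of that list (1.30 to 33.1). The RPA allele *rfa1*-t33 had 1 among 53184, or 0.188 (0.00476 to 1.05), and 2.22% of its 45 insertions. No segment was listed in the other 8 genotypes, and most of their lists were short. They held 1 single-donor insertion each in *lig4*Δ and *mre11*Δ, 2 in *pol32*Δ, 3 in *rad30*Δ and 5 in *rtt105*Δ *rad1*Δ. There were 6 in *rev3*Δ, 8 in *mre11*-H125N and 63 in *rfa1*-t33 *rad27*Δ. Beside the 7.73% share over all lists, a count of 0 in the short lists says little about the element. A count of 0 (3 counts as the limit) allows up to 0.208 per 10000 in the nuclease mutant *mre11*-H125N, 0.460 in *lig4*Δ, 0.468 in *rev3*Δ, 0.575 in *mre11*Δ, 0.679 in *pol32*Δ and 0.804 in *rad30*Δ. In *rfa1*-t33 *rad27*Δ, with 14976 colonies, the limit is 2.00. In *rtt105*Δ *rad1*Δ it is 2.07 over the 14496 colonies of the library to which the list is attached and 1.02 over the 29280 colonies of both. For both derivatives of *rtt105*Δ that lack Tel1 or Rad1, it is not known whether the list covers 1 library or both. Colonies were not corrected for survivors that HO had left uncut. Frequencies and limits per repair product would therefore be higher, by amounts that can differ between genotypes, in particular in *lig4*Δ and *mre11*Δ, which lack end-joining factors. No order of the genotypes is drawn from these limits.

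**Figure D1:**
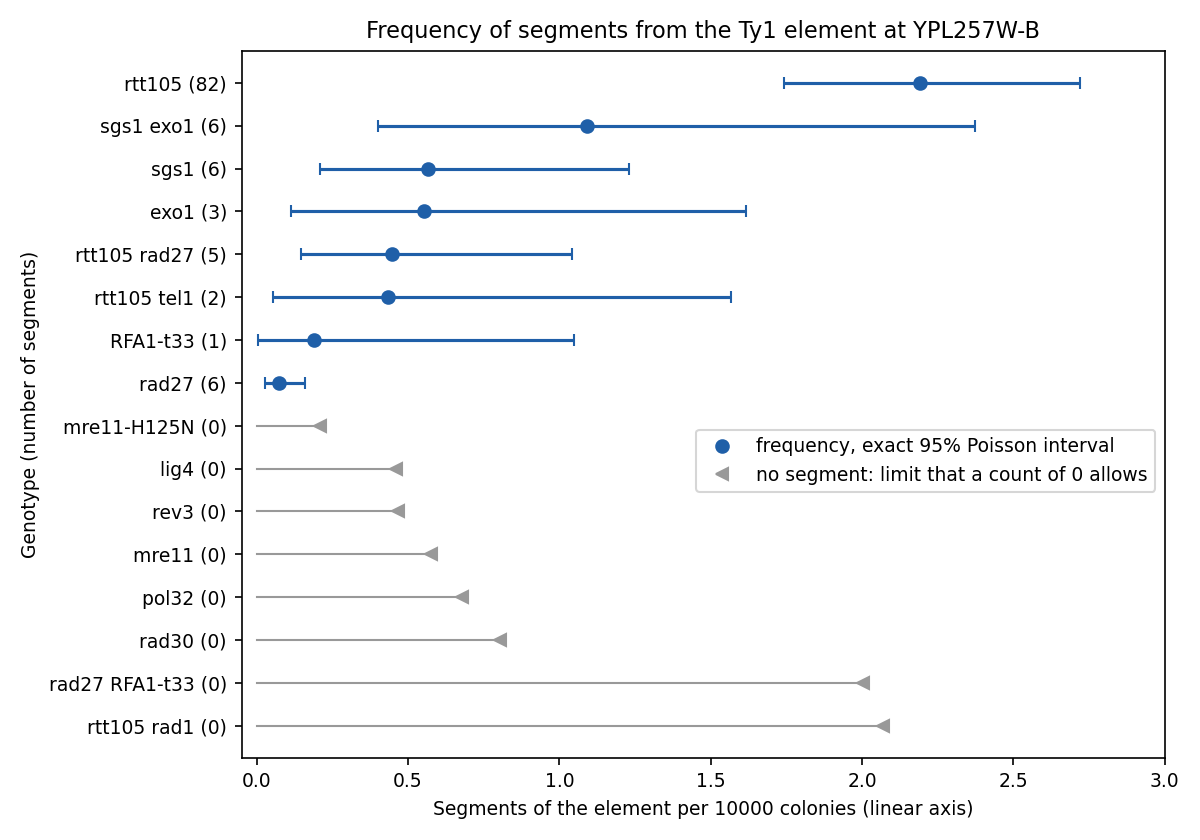
Segments of the element per 10000 colonies (x axis, linear) in each of 16 genotypes (y axis, number of segments in parentheses). Points carry exact 95% Poisson intervals, and grey triangles mark the limit that a count of 0 allows. The highest value is 2.19 in rtt105.

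The frequency of the element can be set beside that of the other Ty1 copies in the same lists. The annotation holds 27 full-length Ty1 elements, recognised by a gag frame of 1323 bp that shares its start with a gag-pol frame within 20 bp of the length of YPL257W-B. Of the 26 others, 16 had at least 1 segment. In *rtt105*Δ, the element held 82 of 152 Ty1 segments (53.9%, 45.7 to 62.1), and the other 70 were spread over 14 elements. YPR137C-B followed with 24, YML039W with 12 and YPR158C-D with 8. In the other 15 genotypes together the element held 29 of 89. Its share of the Ty1 segments was 6 of 18 in *sgs1*Δ *exo1*Δ, 6 of 20 in *sgs1*Δ, 3 of 7 in *exo1*Δ, 6 of 13 in *rad27*Δ, 5 of 6 in *rtt105*Δ *rad27*Δ, 2 of 7 in *rtt105*Δ *tel1*Δ and 1 of 8 in *rfa1*-t33. In *mre11*-H125N, *rev3*Δ, *pol32*Δ and *rfa1*-t33 *rad27*Δ, which had no segment of the element, 4, 3, 2 and 1 segments of other Ty1 elements were listed.

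The *rtt105*Δ segments came from 2 sequencing runs, told apart by the names of the reads. The smaller run gave 5 of its 40 insertions (12.5%, 4.19 to 26.8), and the larger run gave 77 of 503 (15.3%, 12.3 to 18.8). The element's share of Ty1 segments was 5 of 9 and 77 of 143. The larger run held no other genotype, so for its 77 segments run and genotype cannot be told apart.

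The 82 segments of *rtt105*Δ reached from 56452 to 62375, a span of 5924 bp, and covered 90.1% of it. Most lay inside the frame. There were 19 gag segments (23.2%, 14.6 to 33.8), 47 pol segments (57.3%, 45.9 to 68.2), 6 on the upstream LTR side (7.32%, 2.73 to 15.2) and 10 on the downstream LTR side (12.2%, 6.01 to 21.3). Per kb of frame this is 14.4 segments in gag and 11.9 in pol. A frame base was covered by 2 segments in the median, and the highest cover was 10 segments, just downstream of the frame at 62037. The longest uncovered stretch was 223 bp long and lay toward the end of gag, 1015 to 1237 bp from its first base.

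The 29 segments of the other genotypes were placed differently. The upstream LTR side held 12 (41.4%, 23.5 to 61.1), pol 12 (41.4%), gag 3 (10.3%, 2.19 to 27.4) and the downstream LTR side 2 (6.90%, 0.846 to 22.8). Together they covered 34.8% of their span. Their highest cover, 12 segments, was at the start of gag, and the longest uncovered stretch was 783 bp within pol.

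**Figure D2:**
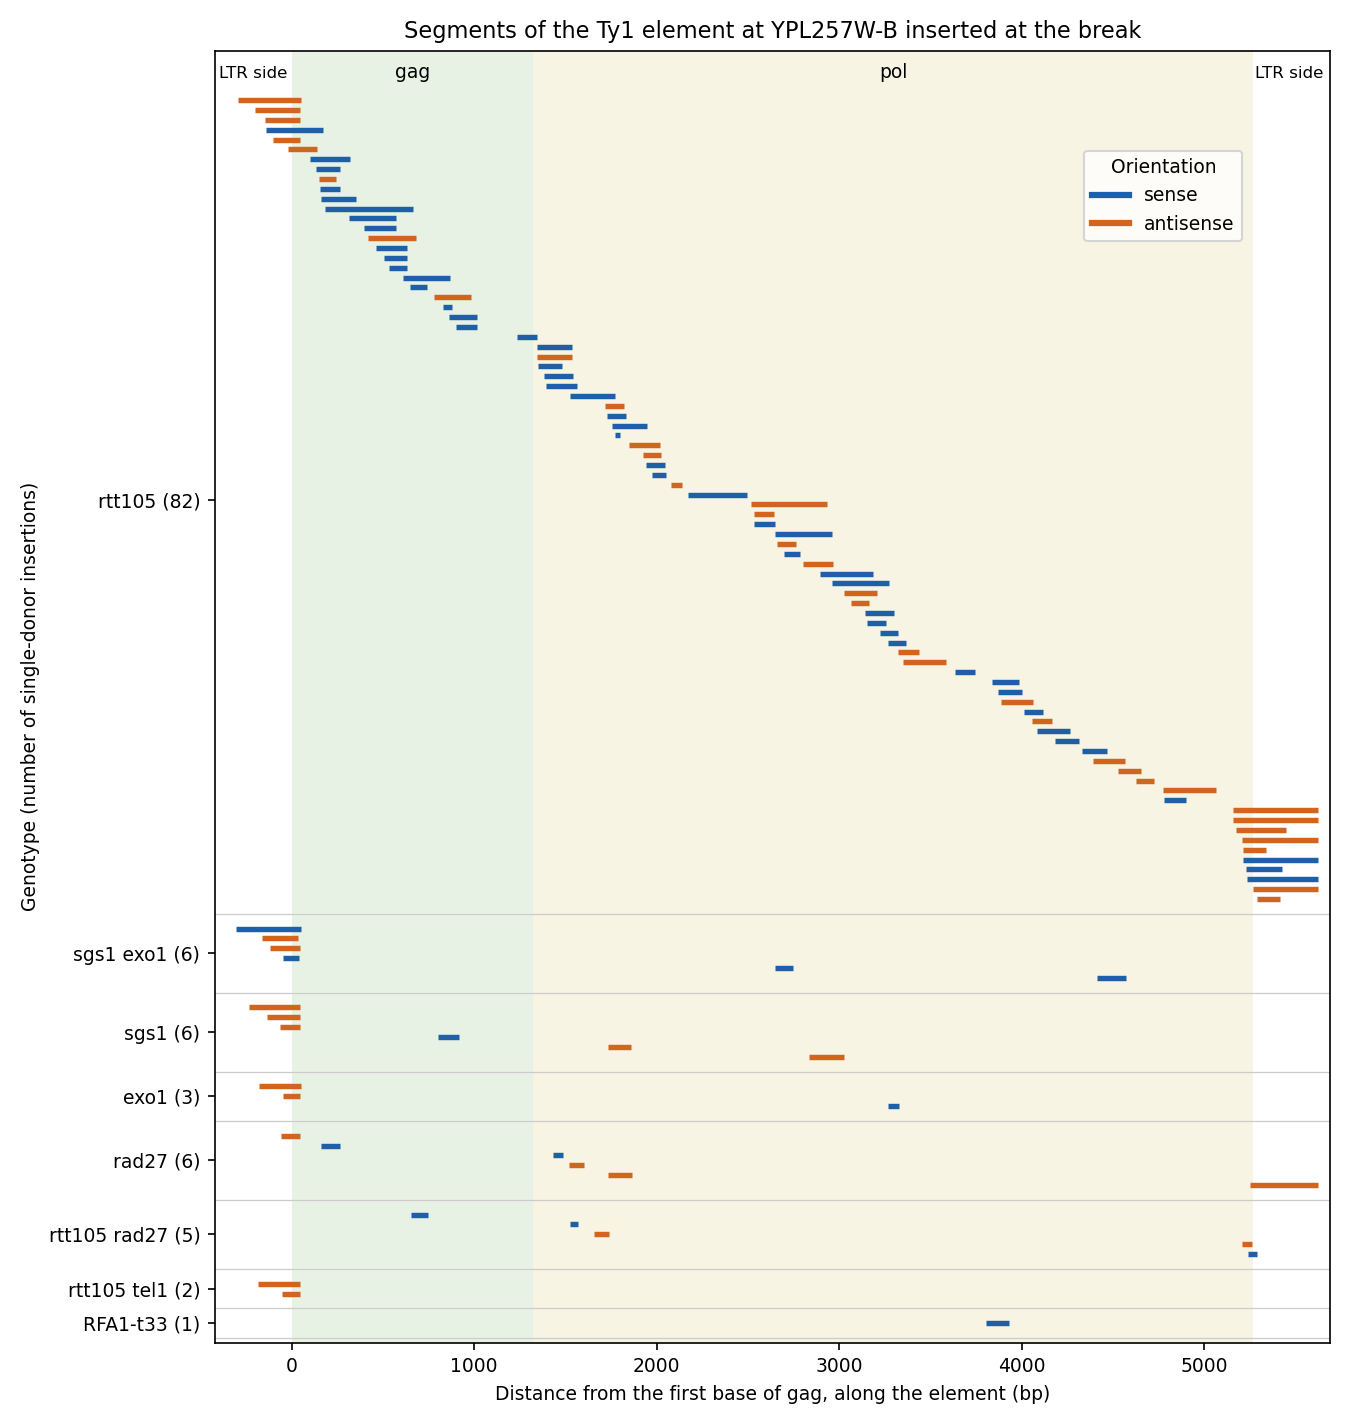
Each line is 1 inserted segment, drawn by its distance in bp from the first base of gag (x axis) and grouped by genotype (y axis, number of segments in parentheses). Blue is sense and orange antisense. The rtt105 segments cover 90.1% of their span, while 12 of the 29 in other genotypes cross the start of gag.

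**Figure D3:**
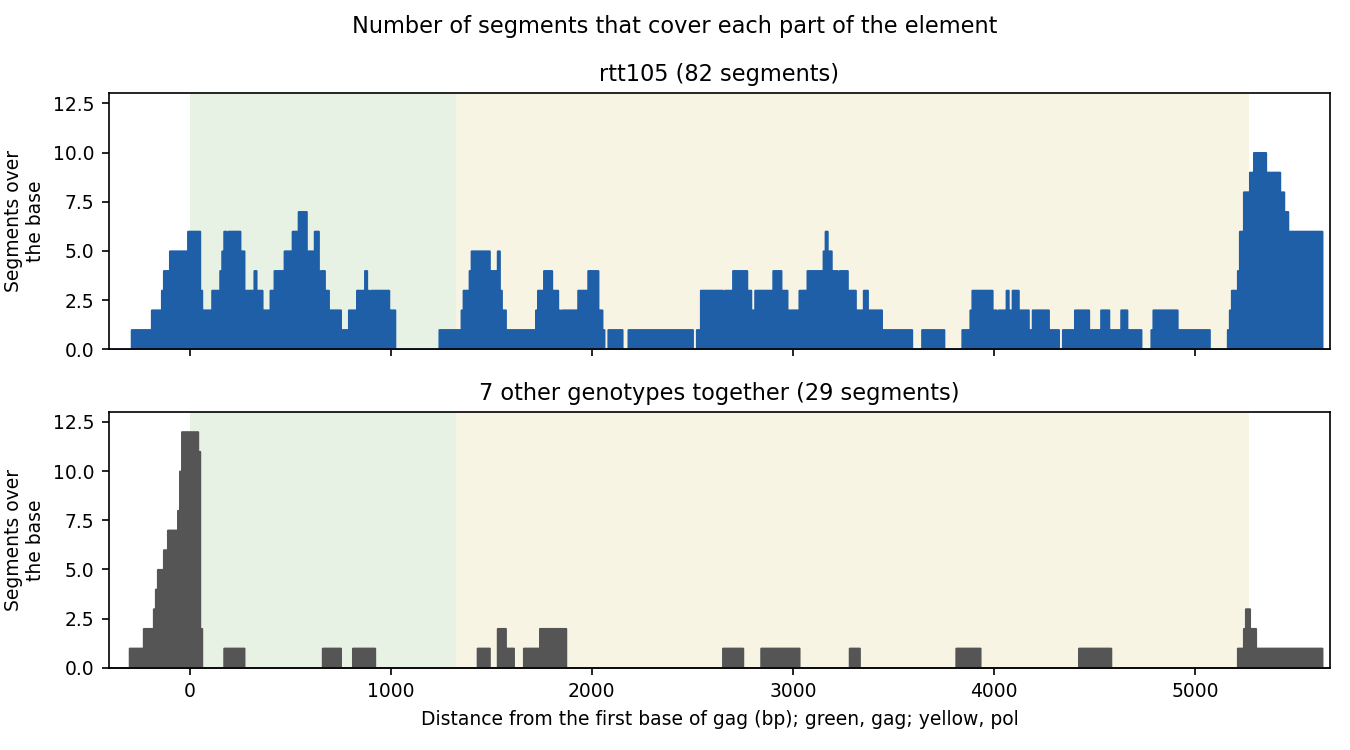
Number of segments over each base (y axis) against the distance from the first base of gag in bp (x axis), for rtt105 (82 segments, upper) and the 7 other genotypes together (29 segments, lower). The highest cover is 10 downstream of the frame in rtt105 and 12 at the start of gag in the other genotypes.

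The rule did not use the region of a segment, but the element was chosen for its number of segments. In *rtt105*Δ, 66 of 82 lay inside the frame, so that choice can itself lower the LTR share. The tests of LTR share therefore describe these lists and are not independent support. The LTR sides together held 16 of 82 segments in *rtt105*Δ (19.5%, 11.6 to 29.7) and 14 of 29 in the other genotypes (48.3%, 29.4 to 67.5). Among the 29 are segments of 2 strains that also lack Rtt105. They had 1 of 5 on an LTR side in *rtt105*Δ *rad27*Δ and 2 of 2 in *rtt105*Δ *tel1*Δ. The comparison is thus not one of cells without and with Rtt105. The LTR share was lower in *rtt105*Δ by 28.8 percentage points (odds ratio 0.260, Fisher's exact test, two-sided, p = 0.00638, adjusted p = 0.0106, Benjamini-Hochberg over 5 tests). The other full-length Ty1 elements also had a lower share there, with 36 of 70 segments on an LTR side in *rtt105*Δ (51.4%, 39.2 to 63.6) and 45 of 60 in the other genotypes (75.0%, 62.1 to 85.3), a difference that was not tested. By run, the LTR sides held 13 of 77 segments in the larger *rtt105*Δ run and 3 of 5 in the smaller one. The difference thus rests on the larger run, and with the 5 segments of the smaller run alone it had the opposite sign (11.7 points higher, p = 1.00). Leaving out each other genotype in turn gave adjusted p from 0.00391 to 0.0466, the highest without *sgs1*Δ *exo1*Δ. The larger run held no other genotype and the lists pool libraries, so these p-values measure neither run nor library spread. They cannot tell genotype from run.

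Within *rtt105*Δ, where all elements were read in the same libraries, the LTR share of the element was also lower than that of the other full-length Ty1 elements. It was 16 of 82 against 36 of 70, a difference of 31.9 points (odds ratio 0.229, Fisher's exact test, two-sided, p = 6.49e-05, adjusted p = 0.000324). The other elements differed among themselves. All 12 *rtt105*Δ segments of YML039W were on an LTR side, whereas 10 of 24 were in YPR137C-B and 1 of 8 in YPR158C-D. Without YML039W the difference was 21.9 points (adjusted p = 0.0124). LTRs of different copies are near-identical, so their listing at 1 copy or another depends on the alignment, and the part of this in the difference was not tested.

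**Figure D4:**
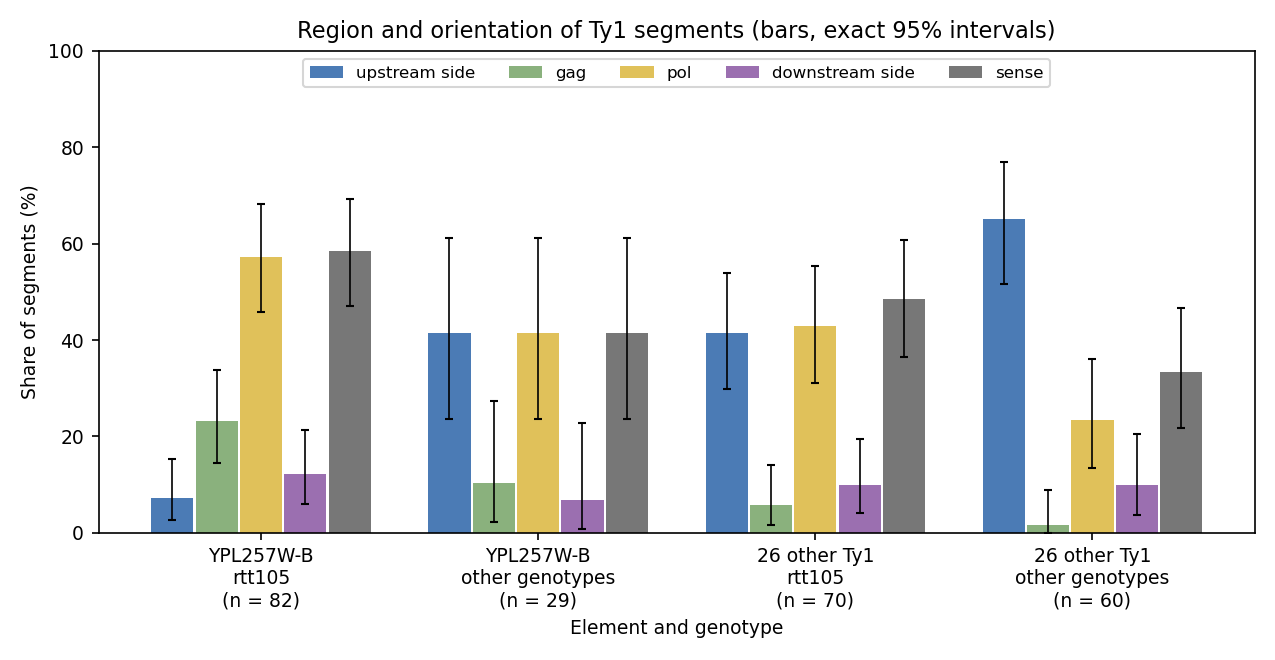
Share of segments in percent (y axis) on the upstream side, in gag, in pol, on the downstream side and in sense orientation, for the element and the 26 other Ty1 elements in rtt105 and in the other genotypes (x axis). Bars carry exact 95% intervals, and the upstream share ranges from 7.32% in the element in rtt105 to 65.0% in other Ty1 elements in other genotypes.

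In orientation, LTR and internal segments of *rtt105*Δ differed. Of 66 segments inside the frame, 44 were sense (66.7%, 54.0 to 77.8), while 4 of 16 on the LTR sides were (25.0%, 7.27 to 52.4). The difference of 41.7 points passed Fisher's exact test (two-sided, odds ratio 0.167, p = 0.00392, adjusted p = 0.00981). It was 24.8 points (adjusted p = 0.0864) once donors of complex insertions were added. By run, 3 of 13 LTR-side and 44 of 64 internal segments were sense in the larger *rtt105*Δ run. In the smaller run they were 1 of 3 and 0 of 2, the opposite sign, so the difference rests on the larger run. The list pools libraries, so these p-values do not measure the spread between them. The other genotypes leaned as the whole *rtt105*Δ list did, with 3 of 14 sense on the LTR sides (21.4%, 4.66 to 50.8) and 9 of 15 inside the frame (60.0%, 32.3 to 83.7). For the other Ty1 elements in *rtt105*Δ, 5 of 28 segments from -400 to 99 bp were sense, against 34 of 70 in all. Neither was tested. Along the frame in *rtt105*Δ, the gag segments were mostly sense, 16 of 19 (84.2%, 60.4 to 96.6), and pol held 28 sense and 19 antisense segments (59.6% sense, 44.3 to 73.6). In the first 500 bp bin wholly inside gag, 100 to 599 bp from its start, 10 of 12 *rtt105*Δ segments were sense. In the bin from 5100 bp, which spans the end of pol, 3 of 10 were. Those 10 are the segments of the downstream LTR side, already counted above, and not pol segments.

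Over the whole element, 48 of 82 segments were sense in *rtt105*Δ (58.5%, 47.1 to 69.3) and 12 of 29 in the other genotypes (41.4%, 23.5 to 61.1). This difference of 17.2 points did not pass the test (adjusted p = 0.165). Against the other Ty1 elements in *rtt105*Δ, of which 34 of 70 segments were sense (48.6%, 36.4 to 60.8), the difference of 9.97 points did not pass either (adjusted p = 0.254). Both used Fisher's exact test, two-sided. By run, 47 of 77 were sense in the larger *rtt105*Δ run and 1 of 5 in the smaller one. The comparison of genotypes cannot tell genotype from run. Its 29 segments include those of *rtt105*Δ *rad27*Δ (3 of 5 sense) and *rtt105*Δ *tel1*Δ (0 of 2), which also lack Rtt105. The genotypes differed in small numbers, with 5 of 6 antisense in *sgs1*Δ and 2 of 6 in *sgs1*Δ *exo1*Δ.

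All 18 segments of the upstream LTR side crossed the first base of gag, and their right ends recurred. Within 5 bp of 56796, which is 48 bp into gag, 15 segments from 6 genotypes ended, 11 of them exactly there. Of the 15, 13 were antisense. Their left ends lay anywhere from 56446 to 56703, so that their lengths ran from 93 to 353 bp. *rtt105*Δ gave 4 of its 82 segments (4.88%, 1.34 to 12.0), at 56452 to 56798, 56550 to 56796, 56601 to 56796 and 56644 to 56796, all antisense. The other genotypes gave 11 of 29 (37.9%, 20.7 to 57.7).

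By genotype, this end was used by 3 of 6 segments in *sgs1*Δ, all antisense, with left ends at 56514, 56611 and 56686. It was used by 3 of 6 in *sgs1*Δ *exo1*Δ, where 56631 to 56796 was antisense and both 56446 to 56798 and 56699 to 56791 were sense. In *exo1*Δ it was used by 2 of 3 segments (56569 to 56798 and 56703 to 56796), in *rtt105*Δ *tel1*Δ by both (56565 to 56796 and 56698 to 56796) and in *rad27*Δ by 1 of 6 (56692 to 56796), all antisense. None of the 5 in *rtt105*Δ *rad27*Δ ended there. A further *sgs1*Δ *exo1*Δ segment, 56585 to 56784 and antisense, ended 12 bp to the left of it.

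The same place relative to gag was an end in other Ty1 copies as well. Within 5 bp of it ended 22 of the 70 segments of the other elements in *rtt105*Δ (31.4%, 20.9 to 43.6, from 7 elements) and 25 of 60 in the other genotypes (41.7%, 29.1 to 55.1). Of these 47 together, 40 were antisense. Over all genotypes the share was 15 of 111 in the element (13.5%, 7.76 to 21.3) and 47 of 130 in the other elements (36.2%, 27.9 to 45.0).

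A second recurrent end closed the downstream side. At exactly 62375, 359 bp past the last base of the frame, 7 segments ended, and no segment of the element reached beyond it. They were 359 to 470 bp long, the 6 of *rtt105*Δ with left ends at 61906, 61909, 61954, 61961, 61981 and 62017 and the 1 of *rad27*Δ with its left end at 61998. Of the 7, 5 were antisense. The segments from 61906 and 61909 in *rtt105*Δ were alike within 5 bp at both ends and are the only such pair within a genotype. Counting them once left 110 segments. In the other Ty1 elements 8 of 130 segments (6.15%, 2.69 to 11.8) ended within 5 bp of the same distance past the frame, all antisense.

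Recurrent ends inside the frame were less used. By the rule of at least 3 segments within 5 bp, 9 ends were found in all, and the 8 with most segments are given. Besides those above, left ends near 61959, shortly before the end of pol, were shared by 3 *rtt105*Δ segments and 1 of *rtt105*Δ *rad27*Δ. Left ends near 56698, upstream of gag, belonged to 1 segment each of *exo1*Δ, *rtt105*Δ *tel1*Δ and *sgs1*Δ *exo1*Δ, which also ended near 56796. In gag, 3 sense segments of *rtt105*Δ, from 57212, 57255 and 57283, ended exactly at 57381. Right ends near 57012 were shared by 2 *rtt105*Δ segments and 1 of *rad27*Δ, all sense. In pol, left ends near 58273 were shared by 1 segment each of *rtt105*Δ, *rad27*Δ and *rtt105*Δ *rad27*Δ, and right ends near 58284 by 3 of *rtt105*Δ.

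Across genotypes, 4 pairs of segments matched within 5 bp at both ends on the same strand, and no 2 segments were identical. The upstream ones paired *exo1*Δ with *rtt105*Δ *tel1*Δ, at 56569 to 56798 with 56565 to 56796 and at 56703 to 56796 with 56698 to 56796. In pol, the antisense segments 58482 to 58613 of *rad27*Δ and 58482 to 58610 of *sgs1*Δ matched. In gag, 57395 to 57492 of *rtt105*Δ and 57400 to 57493 of *rtt105*Δ *rad27*Δ matched, both sense.

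The segments inside the frame in other genotypes were few. In gag they were 56912 to 57012 in *rad27*Δ, 57400 to 57493 in *rtt105*Δ *rad27*Δ and 57551 to 57663 in *sgs1*Δ, all sense. In pol, *rad27*Δ had 58178 to 58234 (sense), 58270 to 58348 and 58482 to 58613 (antisense). *rtt105*Δ *rad27*Δ had 58273 to 58315 (sense), 58407 to 58486 and 61954 to 62010 (antisense). These pol segments of Rad27-deficient cells lay near the start of pol, except the last. *sgs1*Δ *exo1*Δ had 59397 to 59496 and 61162 to 61322, both sense, and *sgs1*Δ had 58482 to 58610 and 59581 to 59774, both antisense. The single pol segments of *exo1*Δ (60019 to 60074) and *rfa1*-t33 (60552 to 60677) were sense.

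In *rtt105*Δ the 82 segments were 27 to 487 bp long with a median of 155.5 bp, and those of the other genotypes were 43 to 378 bp with a median of 111 bp. Lengths are a description, with no test. Within *rtt105*Δ the median was 154 bp in gag (53 to 487), 131 bp in pol (27 to 418), 221.5 bp on the upstream side (153 to 347) and 377 bp on the downstream side (128 to 470). Sense and antisense segments had medians of 143.5 and 172 bp, and the ranges overlap almost wholly. The longest segment of all, 56929 to 57415, was a sense piece of gag in *rtt105*Δ, and the shortest, 58520 to 58546, a sense piece of pol.

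By genotype, segments of *rtt105*Δ *rad27*Δ were 43, 53, 57, 80 and 94 bp long, and 5 of the 82 in *rtt105*Δ were no longer than the longest of these. In *rad27*Δ they were 57 to 378 bp with a median of 103 bp. The medians were 157.5 bp in *sgs1*Δ (111 to 283), 163.5 bp in *sgs1*Δ *exo1*Δ (93 to 353) and 94 bp in *exo1*Δ (56 to 230). *rtt105*Δ *tel1*Δ had segments of 99 and 232 bp, and *rfa1*-t33 one of 126 bp. Other Ty1 elements had a median of 187.5 bp in *rtt105*Δ (71 to 466).

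**Figure D5:**
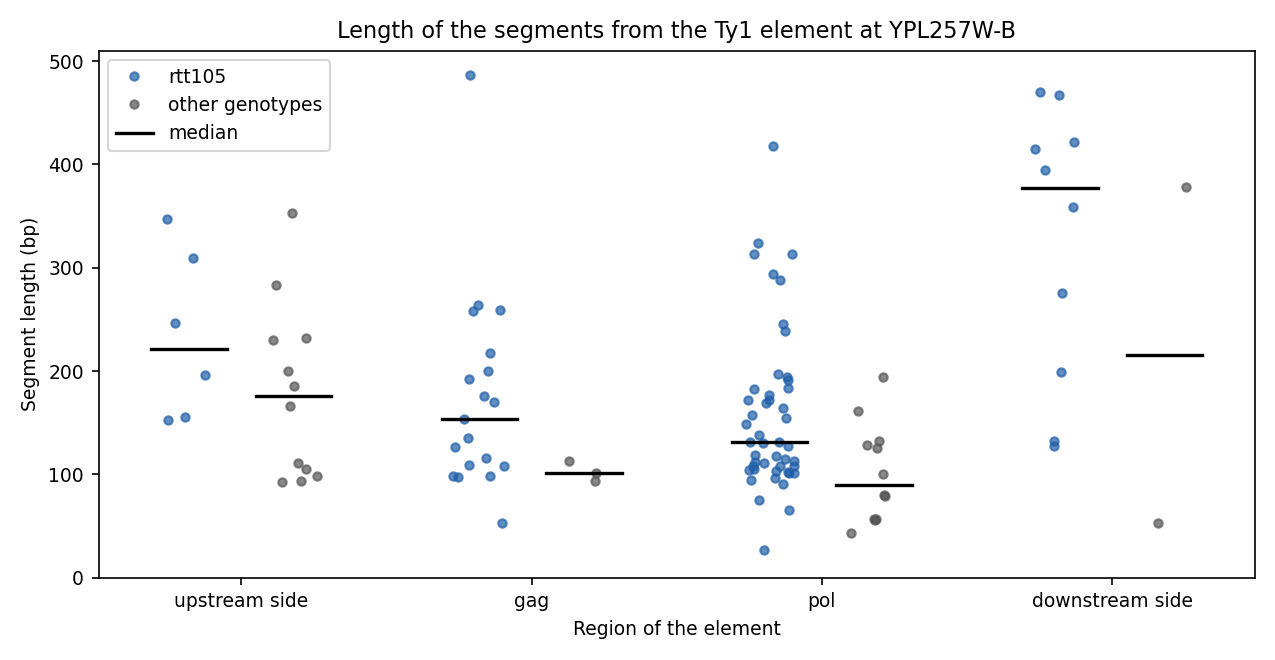
Length of each segment in bp (y axis, linear) by region of the element (x axis), for rtt105 (blue) and the other genotypes (grey). Points are segments, spread sideways for legibility, and black lines are medians, the highest being 377 bp for the downstream side in rtt105.

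No segment crossed the boundary of the window. The outermost members began 98 bp inside its left edge and ended 41 bp inside its right edge. The nearest single-donor insertions outside lay 540 bp to the left (55652 to 55808, *rtt105*Δ) and 7867 bp to the right (70283 to 70332, *rad27*Δ). Of the 111 members, 109 overlapped the gag-pol frame, and the other 2, 62017 to 62375 and 62037 to 62164 in *rtt105*Δ, lay on the downstream side.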

How the data were processed

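Amplicons of the *MAT***a** break site were sequenced from 56 libraries. Per the study's methods, the authors used BBDuk for read quality, PEAR to merge read pairs and BLASTN to detect inserted DNA over 10 bp, and then collapsed redundant reads and assigned donors. The deposited lists hold neither a count nor an intensity but, as other values, the donor position in bp on R64 and its strand, with a line for each donor. Of 30 deposited files 26 were used. Left out were a text list of libraries, a complex-insertion list without donors (*rtt105*Δ *rad1*Δ), and both lists that carry the names *rtt105* and RFA1-t33, a combination that no library has. The text list assigns these to *rad27* RFA1-t33, whose values here come from the lists that bear its name. The same text list assigns the *rev3* insertions to *yku70*Δ, so *yku70*Δ was not analysed here.

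Starts were printed 1-based. Colonies per genotype came from the labels, for the *tel1*Δ and *rad1*Δ derivatives of *rtt105*Δ from the library that carries the list, and for *rad27*Δ from all libraries. Ty1 elements were taken from the RefSeq R64 gene table, and each donor was assigned to 1 element by most overlap with the frame and 400 bp on both sides. Fisher's exact tests (two-sided) were adjusted by Benjamini-Hochberg over 5 tests. Named were both frames, the 8 most shared ends and the 3 other Ty1 elements with most *rtt105*Δ donors. The element, the lists and the tests were chosen with earlier results of these data known. Alternatives counted near-identical rows (5 bp) once, added complex donors, kept donors of at least 50 bp, used the midpoint for the LTR side, kept donors that overlap the frame, took each *rtt105*Δ run alone or changed the colonies. Leaving out single genotypes or Ty1 elements was added after seeing the data. Placement was tested on simulated data. Python 3.11.15, NumPy 2.4.6, pandas 2.3.3, SciPy 1.17.1 and matplotlib 3.10.9 were used.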

Additional observations from a re-analysis of the deposited data

Results flagged for a closer look

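Complex insertions, which join more than 1 donor and were left out of the comparisons, also held the element. The *rtt105*Δ list of 40 complex insertions had 13 donors of the element, 32 to 316 bp long, in 8 insertions, and the 2 donors in *sgs1*Δ *exo1*Δ (44 and 50 bp) were in 2 of 4. The other lists of complex insertions had 0, among them 26 insertions in *rad27*Δ and 11 in *rtt105*Δ *rad27*Δ. The *rtt105*Δ donors are given here because they lie outside the main measurement and above the 3 counts that a count of 0 allows. In 5 of the 8 insertions both donors came from the element, in 3 of these in opposite orientation. The latter joined 56587 to 56685 with 56713 to 56763, 56464 to 56675 with 61977 to 62008, and 61896 to 61955 with 61987 to 62201. The pairs in the same orientation joined 56694 to 56798 with 60245 to 60382, both sense, and 56696 to 56790 with 57228 to 57543, both antisense. In the remaining 3, the partner lay within 400 bp of the frame of another full-length Ty1 element on chromosome XVI, YPR158W-B or YPR137C-B. Of these insertions, 1 held the element's donor 56748 to 56796, which ends at the recurrent end near the gag start.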

How the results depend on the processing

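Of 110 repeats of a result under an alternative, 105 kept their direction and their side of the threshold, or, for counts and lengths, stayed within the interval or spread. Most alternatives cannot change a count of 0, so the tests are the better guide. Of 53 repeats of a test, 48 kept their direction and side. With the smaller *rtt105*Δ run alone (5 segments), the difference in LTR share between *rtt105*Δ and the other genotypes was 11.7 points instead of -28.8, that in sense share -21.4 instead of 17.2, and that between LTR and internal segments 33.3 instead of -41.7. The LTR share relative to other Ty1 elements kept its sign there (-40.0 points) but not its call, with adjusted p = 1.00 for each. Adding complex donors left the sense difference between LTR and internal segments at -24.8 points (Fisher's exact test, adjusted p = 0.0864), with 7 more segments on the LTR sides. No paired analysis was possible because the lists pool the libraries of a genotype, and for the same reason no replicate could be left out. Read depth and the spread between libraries are unknown, and genotypes with 0 to 6 segments have wide intervals.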
